A study of Homo sapiens with 24 samples.

Results

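Untreated SK-MES1 cells at 48 h were compared with untreated SK-MES1 cells at 24 h, in 6 of the 24 RNA-Seq libraries of a TGFβ time course. The members were chosen by the treatment and time labels alone, as the 3 control libraries of 48 h and the 3 control libraries of 24 h. SK-MES1 is an established cell line from a squamous cell carcinoma of the lung (LUSC), so all libraries come from a single line. All cells were kept for 3 h in medium without growth factors before time 0, a step that the labels call serum starvation, and those compared here then received no TGFβ until total RNA was extracted. The sources describe no return to full medium. The other arm had the same depletion and then 2 ng/ml TGFβ1, and both arms were sampled at 0, 8, 24 and 48 h with 3 libraries each. The sources call the 3 libraries of a group biological replicates without saying what separates them. The p-values therefore measure only the spread between such libraries within a group, estimated over the groups of all 24 libraries. The comparison asks how the transcriptome of depleted cells moved during the second day when no TGFβ had been given.

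A cell without growth factors leaves the division cycle after it has run through its remaining phases, and the mRNAs of mitosis, which are made late in the cycle, are renewed only in cells that keep dividing. Sterol and fatty acid enzymes are controlled together by the SREBP factors, which are held back by INSIG1 when sterols are plentiful. NF-κB and interferon signalling each switch on a wide set of genes, the first for chemokines and acute phase proteins and the second for antiviral proteins, and both act in lung epithelium during injury and infection. These facts are background and were not measured here.

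Short stretches of promoter are shown first, because the motif shares of 4 gene lists are described further on. Not every member of a list carries the motif, and the stretches are examples that do. Capitals mark the matches, on either strand, and each stretch ends before the annotated gene start. The sequences are those of RefSeq on GRCh38.p14, written from 5′ to 3′ on the strand of the gene, and the genes shown were chosen after their values were seen. For the chemokines CXCL8, CXCL1 and CXCL2 and for NFKBIA, the inhibitor of NF-κB, capitals mark the spaced NF-κB pattern GGAANTTCC at chr4:73740463-73740501 (plus strand), chr4:73869300-73869338 (plus), chr4:74099249-74099287 (minus) and chr14:35404807-35404845 (minus).
CXCL8: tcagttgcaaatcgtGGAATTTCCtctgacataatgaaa
CXCL1: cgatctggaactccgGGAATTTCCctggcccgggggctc
CXCL2: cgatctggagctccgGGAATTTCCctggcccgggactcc
NFKBIA: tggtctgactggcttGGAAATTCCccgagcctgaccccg

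For the antiviral genes IFIT1, BST2 and EPSTI1, capitals mark the spaced interferon pattern, which is GAAA, 2 bases of any kind and GAAA again, at chr10:89392492-89392544 (plus), chr19:17405730-17405775 (minus) and chr13:42992272-42992306 (minus). In BST2 the marked run holds 2 overlapping matches.
IFIT1: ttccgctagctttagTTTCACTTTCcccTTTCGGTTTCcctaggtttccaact
BST2: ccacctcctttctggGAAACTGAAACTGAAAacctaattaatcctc
EPSTI1: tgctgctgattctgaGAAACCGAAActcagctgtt

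For the mitotic genes CDC20, KIF4A and MKI67, capitals mark the cell cycle homology region (CHR, TTTGAA) and the CCAAT box (CCAAT) at chr1:43358788-43358945 (plus), chrX:70290031-70290090 (plus) and chr10:128126428-128126536 (minus). In MKI67 a CHR and a CCAAT box overlap. For INSIG1 the CCAAT box is marked at chr7:155297693-155297727 (plus).
CDC20: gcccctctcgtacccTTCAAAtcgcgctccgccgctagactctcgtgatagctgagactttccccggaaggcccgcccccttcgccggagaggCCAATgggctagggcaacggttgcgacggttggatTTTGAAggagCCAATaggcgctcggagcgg
KIF4A: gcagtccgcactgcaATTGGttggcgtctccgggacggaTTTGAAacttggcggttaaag
MKI67: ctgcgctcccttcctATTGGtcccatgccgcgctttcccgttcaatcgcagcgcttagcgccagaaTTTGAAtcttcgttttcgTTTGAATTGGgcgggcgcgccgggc
INSIG1: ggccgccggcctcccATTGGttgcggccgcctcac

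Levels are given in TPM, the length-normalised share of a gene's transcripts in its library, summed over the transcripts of a gene, and changes are log2 fold changes of untreated 48 h against 24 h with their standard errors, from limma voom over all 24 libraries with Benjamini-Hochberg adjustment. The 6 libraries held between 48157033 and 63192651 estimated counts, and the first principal component of their expression, with 79.5% of the variance, separated the times. Untreated 24 h replicate 2 stood apart from the other 24 h replicates, with a chi-square per gene of 20.1 and 18.9 against 4.13 between those other replicates, and the main counts are also given without it. In the TGFβ arm, 24 h replicate 2 stood apart likewise (47.1 and 35.7 against 6.74). So did 0 h replicate 2 of the TGFβ arm (60.5 and 40.2 against 16.8). Among untreated libraries, 0 h replicate 2 (22.7 and 14.7 against 9.1) and 8 h replicate 1 (11.2 and 13.9 against 3.17) also stood apart. No fit left out a single library of 0 or 8 h. Mitochondrial-encoded genes took 10.5 to 11.2% of the TPM at 24 h and 12.6 to 13.3% at 48 h.

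Of 17454 genes tested, 4953 (28.4%) passed the adjusted p of 0.01, with 2576 (14.8%) higher and 2377 (13.6%) lower at 48 h. At least 2-fold were 729 of them (4.18% of the genes tested), 410 higher (2.35%) and 319 lower (1.83%). Scaled to the 4 reference genes of the study's qRT-PCR instead, which moves the median change of all genes from 0.00 to 0.40 on the log2 scale, 10049 genes passed, 95.2% of them higher, against 52.0% here. Under the reference-gene scaling 9565 of the 17454 genes were higher and 484 lower, and list counts at that scaling are to be read beside these. Small changes are therefore relative to the scaling used. Without untreated 24 h replicate 2 there were 4302 genes past the threshold, 2212 higher and 2090 lower, and 680 were at least 2-fold. Of the 410 rising genes, 393 had their highest mean of the 4 times at 48 h. Of the 319 falling genes, 295 had their lowest mean at 48 h and 217 their highest at 0 h. This order sets 0 and 8 h libraries beside 24 and 48 h libraries, which carry different codes in the sample records, so a difference between the codes and one between the times cannot be told apart there. In RNA from whole dishes, a change in the number of cells in a state and a change of RNA per cell cannot be told apart. With 3 libraries against 3, a two-sided exact permutation test of a single gene cannot go below p = 0.1, so single genes rest on the fit across all genes.

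The 3 largest rises among protein-coding genes with at least 5 TPM at either time were in CXCL8, CXCL1 and CSF2, all secreted signals of inflammation, and 32 of the 36 measured members of the list of NF-κB targets, chemokines and cytokines were higher at 48 h, none lower. Their median change was 1.47 on the log2 scale, against 0.00 over all genes, and 26 were at least 2-fold higher. In 35 of the 36 every 48 h library was above every 24 h library, as was so for 28.8% of all genes. The members named here come from lists chosen with earlier results of these data known.

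CXCL8 (ENSG00000169429, GRCh38 chr4:73740519-73743716), which encodes the neutrophil chemokine interleukin 8, stood at 1.41, 1.95 and 2.31 TPM at 24 h and at 34.0, 43.9 and 35.3 TPM at 48 h. Its groups were far apart, the rise was 4.25 ± 0.15 on the log2 scale (adjusted p = 1.2e-14), and the promoter holds the pattern shown above. CXCL1 (chr4:73869393-73871308), another attractant of neutrophils, moved from 3.09, 3.35 and 4.20 TPM to 58.4, 73.4 and 63.1 TPM, a change of 4.23 ± 0.15 (adjusted p = 1.2e-14). CXCL1 shares much of its sequence with CXCL2 and CXCL3, so how reads were divided among these 3 genes is uncertain. CSF2, the granulocyte-macrophage colony-stimulating factor, was at 1.09, 1.25 and 1.68 TPM and then at 19.98, 22.3 and 20.1 TPM, which is 3.90 ± 0.14 higher.

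Acute phase and innate defence genes of this list reached very different levels. C3 (chr19:6677704-6730562), the central complement protein, had the lowest p of all rising genes (adjusted p = 4.5e-18). It went from 13.7, 17.3 and 18.3 TPM to 152, 160 and 142 TPM, a log2 change of 3.36 ± 0.07. SOD2, the mitochondrial superoxide dismutase and an NF-κB target, rose from 227, 248 and 286 TPM to 1496, 1619 and 1495 TPM, making it the most highly expressed member of the list at 48 h. LCN2, an iron-sequestering defence protein, rose by 2.45 ± 0.18 from a mean of 1.495 ± 0.49 TPM (SD, n = 3).

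Regulators of the pathway itself were also on the list. NFKBIA was at 60.4, 60.6 and 62.9 TPM at 24 h and at 141, 144 and 141 TPM at 48 h, a change of 1.16 ± 0.06. NFKBIZ, which encodes a nuclear regulator of NF-κB target genes, rose by 1.501 ± 0.07. NFKB1, the p105 subunit, did not pass the test at 0.07 ± 0.05. The messages of TNF, CSF3 and IL1RN were too low to be tested, with at most 0.175 TPM in any of the 24 libraries.

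**Figure D1:**
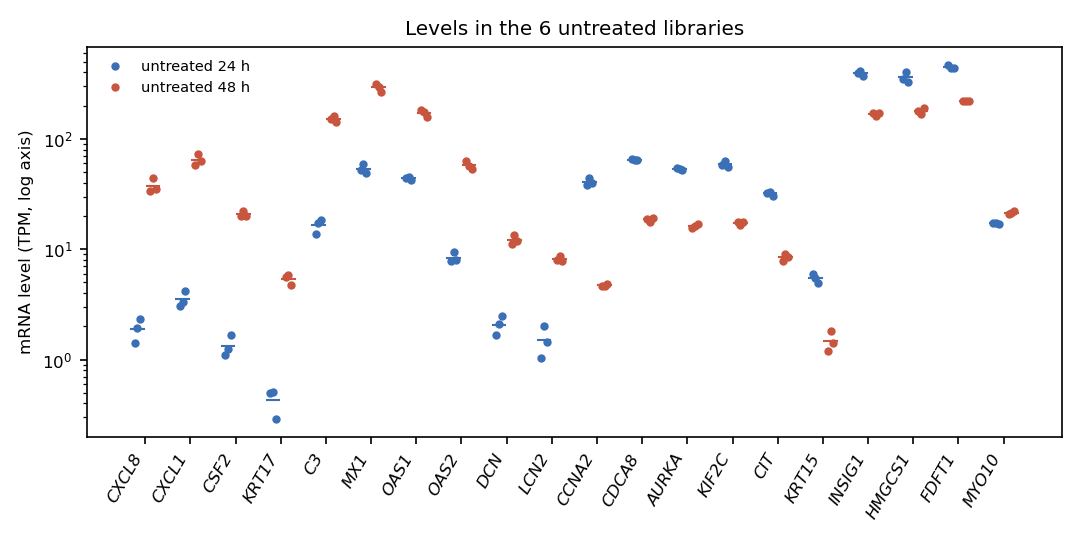
TPM on a log axis of 20 genes in each of the 3 untreated 24 h (blue) and 3 untreated 48 h (red) libraries, with lines at the group means. CXCL8 moved from 1.41 to 2.31 TPM up to 34.0 to 43.9 TPM and CDCA8 from 63.8 to 66.2 TPM down to 17.7 to 19.2 TPM, and the libraries of both times are separate for every gene drawn.

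All 40 measured members of the list of interferon-stimulated genes were higher at 48 h, with a median of 1.34 and 27 of them at least 2-fold higher, and every 48 h library lay above every 24 h library in each of the 40. Without untreated 24 h replicate 2, 39 passed. MX1 (chr21:41420020-41470071), a GTPase that blocks viral replication, stood at 52.5, 58.7 and 48.8 TPM at 24 h and at 317, 295 and 266 TPM at 48 h. Its change was 3.05 ± 0.07 from the counts (adjusted p = 8.8e-18) and 2.41 ± 0.06 from counts scaled by transcript length, so the size of its rise depends on how transcript length is treated, while its direction does not. OAS1, OAS2 and OAS3 encode the oligoadenylate synthetases that sense double-stranded RNA and neighbour each other on chromosome 12. OAS2 rose most of the 3, from 7.75, 9.45 and 7.97 TPM to 63.2, 56.8 and 53.4 TPM, a change of 2.82 ± 0.06. OAS1 was higher throughout, at 44.6, 45.0 and 42.0 TPM and then at 183, 174 and 158 TPM, with a change of 1.91 ± 0.04. OAS3 rose by 1.61 ± 0.05.

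Other members of the list rose by smaller or similar amounts. USP18, which removes ISG15 from proteins and dampens the interferon receptor, rose by 1.66 ± 0.04 from 7.05, 6.94 and 6.94 TPM. MX2, a nuclear relative of MX1, rose by 0.97 ± 0.04, and XAF1, an interferon-induced gene linked to apoptosis, by 2.52 ± 0.12. ISG15 was listed at only 0.844 to 1.40 TPM at 24 h, a sum that covers only the transcripts matched to a gene. Among genes of antigen presentation, 8 of 17 rose and 2 fell. HLA-B, an MHC class I heavy chain, rose by 0.68 ± 0.08 and B2M, its light chain, by 0.38 ± 0.05, and the reads of HLA genes can be divided among near-identical copies.

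The falling side was led by genes of mitosis. All 40 measured members of the G2/M and mitosis list were lower at 48 h, with a median of -1.57, and 37 of them fell at least 2-fold. Each of the 40 was lower in every 48 h library than in every 24 h library, against 19.8% of all genes. CCNA2 (chr4:121816444-121823883), cyclin A2, had the largest fall among protein-coding genes with at least 5 TPM at either time, from 38.0, 44.7 and 39.9 TPM to 4.66, 4.64 and 4.87 TPM. Its log2 change was -3.16 ± 0.37, with a standard error that is large beside the closeness of its libraries within each time. Fitted on the 6 compared libraries alone it was -3.16 ± 0.08, so the large error belongs to the fit over all 24 libraries. CDCA8, the borealin subunit of the chromosomal passenger complex, had the lowest p of the falling genes (adjusted p = 8.8e-18) and fell by 1.84 ± 0.04. Its levels were 66.2, 64.1 and 63.8 TPM at 24 h and 19.0, 17.7 and 19.2 TPM at 48 h.

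Kinases, motors and structural parts of the spindle fell alike. AURKA, the spindle pole kinase Aurora A, went from 54.3, 53.4 and 52.7 TPM to 15.6, 16.4 and 16.9 TPM, a change of -1.70 ± 0.04. KIF2C, a kinesin that takes microtubules apart at centromeres, went from 58.5, 63.3 and 55.1 TPM to 17.8, 16.7 and 17.7 TPM. CIT, the kinase needed for the last step of cell separation, fell by 2.03 ± 0.05, BIRC5 (survivin) by 1.93 ± 0.05, NEK2, a centrosome kinase, by 2.08 ± 0.07, and NDC80, a kinetochore protein, by 2.10 ± 0.10. FOXM1, the factor that drives many of these genes, fell by 1.29 ± 0.04 from 79.2, 76.3 and 75.3 TPM to 32.6, 31.6 and 32.3 TPM.

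Genes of the G1/S transition and DNA replication moved much less and not in 1 direction. Of 40 members, 22 fell, 2 rose and 16 did not pass, with a median of -0.33, and 6 of 40 fell under the reference-gene scaling. Among the largest falls were those of nucleotide enzymes, with TK1, thymidine kinase, at -1.70 ± 0.13, TYMS, thymidylate synthase, at -1.36 ± 0.05, and RRM2, a ribonucleotide reductase subunit, at -0.88 ± 0.05. TYMS stood at 142, 153 and 134 TPM at 24 h and at 62.5, 59.1 and 57.4 TPM at 48 h. In contrast MCM3, a subunit of the replicative helicase named here after its values were seen, was at 62.6, 58.1 and 59.2 TPM and then at 66.6, 66.6 and 66.0 TPM, and its change of 0.09 ± 0.04 did not pass the test (adjusted p = 0.064). The risers were CCNE1, cyclin E1 (0.53 ± 0.07), and MCM6 (0.23 ± 0.06).

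Inhibitors of the cycle did not rise as a group. Of 23 CDK inhibitors and p53 targets, 4 rose and 9 fell, or 3 under the reference-gene scaling. CDKN1A, the inhibitor p21, fell by 0.73 ± 0.06 from 78.3, 71.8 and 80.0 TPM to 48.9, 48.7 and 47.5 TPM, and CDKN2C, the inhibitor p18, fell by 1.41 ± 0.07. GDF15, a secreted stress cytokine, went the other way, from 125, 105 and 137 TPM to 582, 585 and 525 TPM, a rise of 2.16 ± 0.16. CDKN2A was listed at 0 in every library and was not tested.

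Sterol synthesis fell as a group. Of 25 genes of cholesterol synthesis and uptake, 21 fell and none rose, with a median of -0.64, and 22 of the 25 were lower in every 48 h library. Under the reference-gene scaling 13 fell, where 484 of all 17454 genes tested did, and without untreated 24 h replicate 2 there were 20. INSIG1, the sterol sensor partner, fell most, from 398, 409 and 370 TPM to 171, 161 and 172 TPM, a change of -1.28 ± 0.05 (adjusted p = 1.2e-13). FDFT1, squalene synthase, was at 470, 439 and 442 TPM and then at 219, 219 and 223 TPM, and FDPS, which makes farnesyl diphosphate, fell by 0.84 ± 0.05. SREBF2, which encodes the controlling factor, was at -0.05 and did not pass. Of 18 fatty acid synthesis genes, 10 fell (4 under the reference-gene scaling) and 1 rose. SCD, the stearoyl-CoA desaturase, fell by 0.76 ± 0.06 from 946, 1040 and 957 TPM to 608, 568 and 621 TPM, and FADS1 and FADS2, which make polyunsaturated fatty acids, each fell by 0.69.

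**Figure D2:**
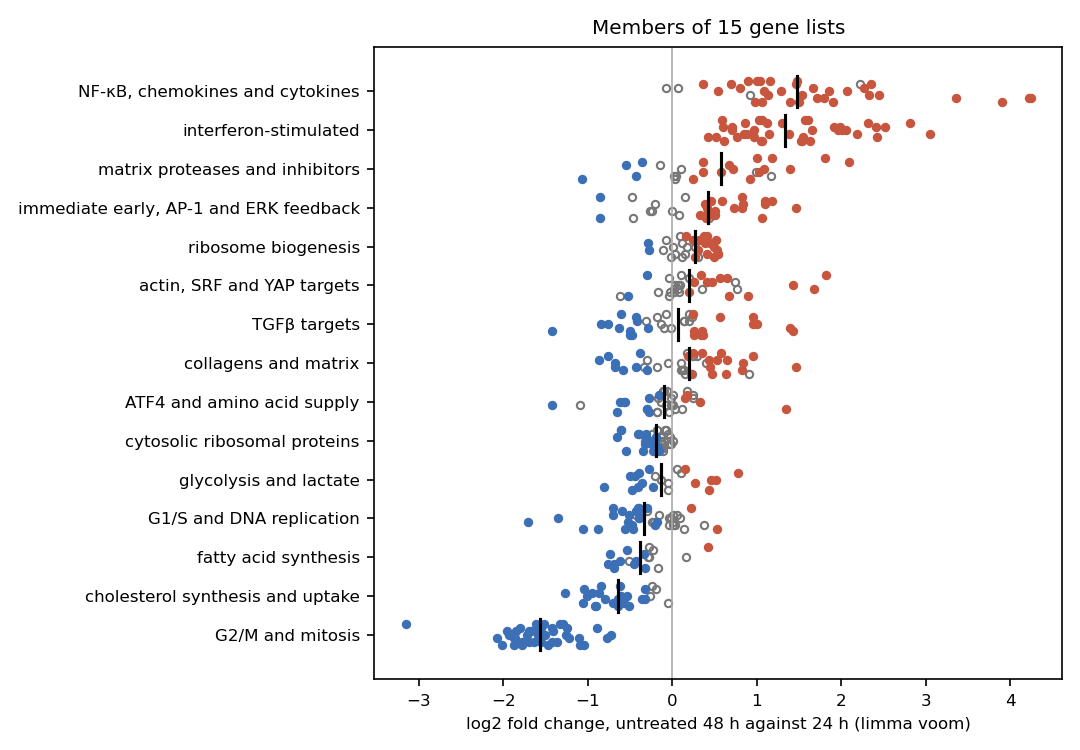
Log2 fold change of untreated 48 h against 24 h (horizontal axis) for every tested member of 15 gene lists, with filled points past the adjusted p of 0.01 (red higher, blue lower), open points not past it and black bars at the list medians. Medians run from 1.47 for NF-κB targets and chemokines to -1.57 for G2/M and mitosis.

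Genes that respond to ERK and to mechanical signals through SRF and YAP moved in smaller numbers. Of 30 immediate early genes and feedback inhibitors of ERK, 19 rose and 2 fell, with a median of 0.42. HBEGF, a ligand of the EGF receptor, rose by 1.46 ± 0.08 from a low 1.55, 1.80 and 1.72 TPM, DUSP6, a phosphatase that switches off ERK, by 1.19 ± 0.06, and SPRY4, another inhibitor of the pathway, by 1.07 ± 0.07. Of 31 actin, SRF and YAP targets, 12 rose and 2 fell. ANKRD1, a YAP target, rose from 9.80, 10.5 and 10.9 TPM to 37.4, 39.0 and 37.8 TPM, a change of 1.82 ± 0.07, and the matricellular proteins CCN1 and CCN2 rose by 1.67 ± 0.05 and 1.43 ± 0.06.

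The targets of TGFβ itself split evenly in cells that had received none, with 12 of 34 higher and 11 lower and a median of 0.06. TIMP3, an inhibitor of matrix proteases, was at 79.3, 83.1 and 84.2 TPM and then at 222, 224 and 224 TPM, a rise of 1.39 ± 0.06. TGFB2, a TGFβ ligand, rose by 0.95 ± 0.08. VIM, the mesenchymal filament vimentin, fell from 1342, 1310 and 1299 TPM to 770, 755 and 766 TPM (-0.84 ± 0.05), and SNAI1, a repressor of epithelial genes, fell by 1.42 ± 0.12. MYO10, the unconventional myosin of filopodia on which the study centred, was at 17.3, 17.4 and 17.04 TPM and then at 21.0, 21.1 and 22.4 TPM, a rise of 0.26 ± 0.04 (adjusted p = 6.0e-06).

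Secreted proteases and matrix genes rose more often than they fell. Of 25 proteases and inhibitors, 14 rose and 4 fell, with a median of 0.58. MMP1, interstitial collagenase, rose by 2.10 ± 0.13 from 1.81, 1.96 and 2.26 TPM to 8.02, 9.57 and 9.33 TPM, and PLAU, urokinase, by 1.03 ± 0.06. Of 38 collagen and matrix genes, 15 rose and 8 fell. COL12A1 and COL4A5 rose by 0.83 ± 0.06 and 0.84 ± 0.04, whereas NID2, a basement membrane protein, fell by 0.87 ± 0.05.

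The ribosome lists moved apart. Of 40 cytosolic ribosomal protein genes, 19 fell and none rose, with a median of -0.20, and RPSA, at 1343, 1257 and 1326 TPM and then 865, 852 and 877 TPM, had a fall of 0.66 ± 0.05. Of 30 genes for building ribosomes, 16 rose and 2 fell, with a median of 0.27, among them NOLC1, a nucleolar chaperone, at 0.49 ± 0.05. Both lists turned on the scaling: with the reference genes, the ribosomal protein genes that fell were 2 of 40 and the ribosome-building genes that rose were 27 of 30. Over all 17454 genes tested, 9565 rose and 484 fell at that scaling. Among the reference genes themselves, GAPDH fell here by 0.50 and HPRT1 by 0.52, and GUSB was at -0.01.

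Metabolic and stress lists held members in both directions, and here too the falls were fewer under the reference-gene scaling, with none of the 9 in glycolysis, 2 in the ATF4 list and 2 in the NRF2 list left. In glycolysis, 6 of 21 genes rose and 9 fell, with the glucose transporter SLC2A3 at 0.78 ± 0.05 and lactate dehydrogenase LDHA at -0.40 ± 0.04. In the hypoxia list, 7 of 24 rose and 4 fell, and VEGFA, the vessel growth factor, went from 95.8, 80.5 and 102 TPM to 223, 220 and 230 TPM. Of 33 ATF4 and amino acid genes, 4 rose and 9 fell, with PHGDH, the first enzyme of serine synthesis, at -1.43 ± 0.09 and STC2, a stress-induced glycoprotein, at 1.35 ± 0.06. Of 23 endoplasmic reticulum folding genes, 8 rose and none fell, among them XBP1 (0.70 ± 0.07) and HSPA5 (0.50 ± 0.05), the factor and the chaperone of the unfolded protein response. Of 22 genes linked to FOXO, MondoA and growth factor withdrawal, 7 rose and 7 fell, with TXNIP, an inhibitor of thioredoxin, at 0.77 ± 0.09 and TSC22D3, a glucocorticoid-induced gene, at -0.87 ± 0.04. Of 30 NRF2 and detoxification genes, 8 rose and 11 fell, with the aldo-keto reductase AKR1B10 rising by 1.60 ± 0.07 from 47.6, 49.2 and 51.1 TPM. Of 33 lysosome and autophagy genes, 6 rose and 3 fell, and 4 of 13 mitochondrial-encoded genes rose. Over all genes tested, 14.8% were higher and 13.6% lower, and counts such as those of the lysosome list lie near these shares and show nothing about the list.

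Epithelial identity was checked against marker lists. Of 14 markers of squamous carcinoma and basal keratinocytes only 8 were high enough to be tested, and KRT5, KRT14, KRT6A, KRT6B, DSG3 and COL17A1 stayed at or under 0.491 TPM in all 24 libraries, so several defining markers of squamous epithelium were near 0. TP63, the master factor of the squamous lineage, was present at 15.7, 16.2 and 16.1 TPM and rose to 36.0, 37.5 and 36.9 TPM (1.18 ± 0.07). KRT17, a stress keratin with related genes and pseudogenes that could share its reads, rose from 0.497, 0.513 and 0.290 TPM to 5.65, 5.87 and 4.71 TPM, and KRT15, a basal keratin, fell by 1.99 ± 0.16. Of the 8 tested, 3 rose and 4 fell, with a median of -0.25. The other falls were those of SOX2 (-0.56), ITGA6 (-0.48) and PKP1 (-0.44), which did not pass under the reference-gene scaling. Of 35 epithelial junction genes, 9 rose and 6 fell, with CLDN1, a tight junction claudin, at 1.74 ± 0.08. The simple keratins KRT8 and KRT18 rose by 0.81 ± 0.08 and 0.78 ± 0.04, while KRT19 fell by 0.80 ± 0.12. Of the 32 genes of squamous differentiation, only 13 were tested, and 3 rose.

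Markers of other cell types were low, with exceptions among fibroblast genes. Of 4 tested leukocyte markers only CD68 changed, falling by 0.65 ± 0.09, and CD3E and MS4A1 were listed at 0 in every library. Of 5 endothelial markers only PECAM1 rose, to 2.59 to 2.87 TPM, and of 4 tested alveolar and airway markers only NKX2-1 changed, falling from at most 1.15 TPM. Of 7 fibroblast markers, 5 rose and PDGFRB fell, although the TPM values of PDGFRB overlapped between the times. DCN, the matrix proteoglycan decorin, went from 1.67, 2.11 and 2.46 TPM to 11.3, 13.4 and 11.9 TPM, a rise of 2.64 ± 0.11, LUM, its relative lumican, rose by 1.46 ± 0.08 and PDGFRA by 0.67 ± 0.05. The part of these genes in the matrix results was not tested.

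The late change was then set against that of the TGFβ arm over the same hours, in libraries of which none is shared. The difference between the arms was past the adjusted p of 0.01 in 1591 genes (9.12%), more positive in untreated cells in 980 (5.61%) and more negative in 611 (3.5%). It was 1450 without untreated 24 h replicate 2, 1497 without TGFβ-treated 24 h replicate 2 and 1376 without replicate 2 of 24 h in both arms. Of the 410 genes that rose at least 2-fold in untreated cells, 145 rose more there than with TGFβ, and their median was 1.39 against 0.73. These genes were chosen by the untreated value, which is one term of the difference. Of the 319 that fell at least 2-fold, 92 fell more in untreated cells, with medians of -1.35 and -0.92.

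Interferon-stimulated genes rose more without TGFβ. In 30 of the 40 the difference passed, all in that direction, and the medians were 1.34 in untreated and 0.47 in TGFβ-treated cells. OAS3 rose by 1.61 in untreated cells and stood at 0.24 with TGFβ, a difference of 1.37 (adjusted p = 2.3e-10). For the NF-κB and chemokine list 17 of 36 differed, all larger in untreated cells, and 11 did so without untreated 24 h replicate 1, with medians of 1.47 and 0.71. C3 reached 151 ± 9.1 TPM without and 14.5 ± 2.4 TPM with TGFβ at 48 h (SD, n = 3). These are levels and not late changes, so they include any difference between the arms already present at 24 h.

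The cell cycle lists differed in opposite senses. Of the mitotic genes 19 fell more in untreated cells and 1 less, with medians of -1.57 and -1.11, and the count of 19 became 27 without TGFβ-treated 24 h replicate 2. Of the G1/S genes 34 fell less in untreated cells and none more, with medians of -0.33 and -1.09. MCM3, level in untreated cells, was at -0.78 with TGFβ, a difference with an adjusted p of 1.0e-09. Ribosome-building genes differed in 20 of 30, all more positive in untreated cells, with a median of -0.10 with TGFβ, and in 13 of 30 under the reference-gene scaling.

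Among genes changed at least 2-fold in untreated cells, those with the lowest p in this difference and a more positive change there included CEMIP, a hyaluronan-binding protein, and STC2. CEMIP rose from 24.1, 21.5 and 24.3 TPM to 104, 103 and 99.8 TPM without TGFβ, against a change of 0.22 with it. STC2 rose from 27.8, 24.8 and 30.1 TPM to 71.8, 69.1 and 66.5 TPM without TGFβ, and with TGFβ it fell by 0.46. On the other side of this difference, with a more negative change in untreated cells, were SLC2A12, a glucose transporter that fell by 1.41 ± 0.07 without TGFβ and stood at -0.06 with it, PRR11 and PIMREG, which are linked to mitosis, and FDFT1.

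**Figure D3:**
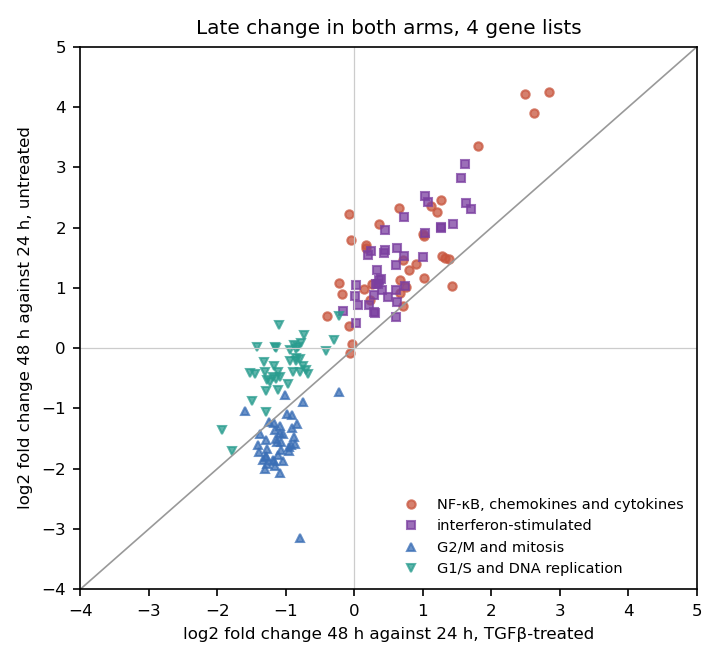
Log2 fold change of 48 h against 24 h in TGFβ-treated (horizontal) and untreated (vertical) cells for the members of 4 gene lists, with the line of equal change. Most interferon-stimulated and NF-κB genes lie above the line, the G1/S genes lie above it with medians of -0.33 untreated and -1.09 with TGFβ, and many mitotic genes lie below it.

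The late change was also set against that of the first 8 h of the same untreated cells, from 0 h libraries to 8 h libraries, which carry another code in the sample records. The difference of the late and the early change passed in 4191 genes (24.0%), with a higher late change in 2006 (11.5%) and a lower one in 2185 (12.5%), and in 3953 without untreated 24 h replicate 2. The late interval, 24 to 48 h, is longer than the early one, 0 to 8 h. A steady change would therefore also give a difference, and rates per hour were not compared. All 40 mitotic genes fell more in the late interval, with an early median of -0.48 and a late median of -1.57. Of the 25 cholesterol genes, 24 had a lower late than early change, and their early median was positive at 0.63: INSIG1 had means of 152, 201, 393 and 168 TPM at 0, 8, 24 and 48 h, again across the 2 codes. Of the 40 interferon-stimulated genes 35 and of the 36 NF-κB and chemokine genes 25 had a higher late than early change, with early medians of 0.04 and -0.04.

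Among genes changed at least 2-fold in the late interval, those with the lowest p in this difference included STC2, which fell from 380 to 76.2 TPM over the first 8 h and rose by 1.35 ± 0.06 in the late interval. ADAMTS1, a secreted protease, had an early change of -1.34 and a late rise of 1.08 ± 0.05. UBE2C, which feeds the anaphase-promoting complex, had means of 212 and 291 TPM at 0 and 8 h and then fell by 1.61 ± 0.06 between 24 and 48 h.

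**Figure D4:**
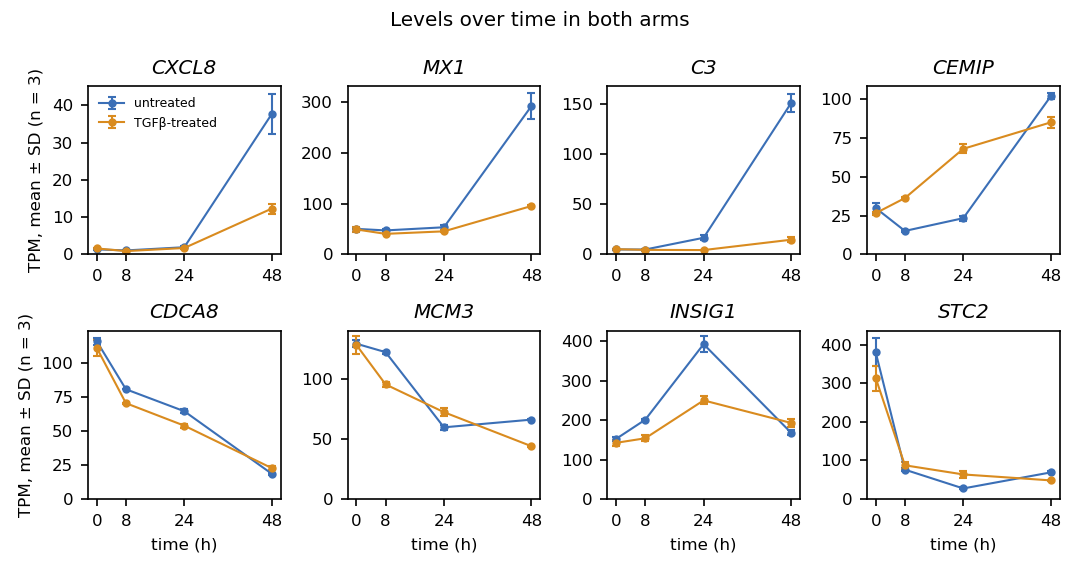
Mean TPM with SD (n = 3 libraries) at 0, 8, 24 and 48 h in untreated (blue) and TGFβ-treated (orange) cells for 8 genes. CXCL8, MX1 and C3 rose between 24 and 48 h, INSIG1 peaked at 24 h with 393 TPM in untreated cells, and CEMIP reached 102 TPM in untreated and 85.2 TPM in TGFβ-treated cells at 48 h.

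The promoters were searched for 13 short motifs, of which 11 had been listed first and the spaced NF-κB and interferon patterns were added after the data were seen. Each promoter spans 250 bases before to 50 after the RefSeq start, and 12491 of the 17454 tested genes had one under the same symbol. The NF-κB pattern was in 12 of 28 promoters of the NF-κB and chemokine list (42.9%), in 1.01% of the promoters of tested genes and in 0.967% of all 27305 promoters. The interferon pattern was in 19 of 32 interferon-stimulated promoters (59.4%), against 2.92% of tested genes and 3.65% of all promoters. The CHR was in 22 of 34 mitotic promoters (64.7%), against 10.3% and 15.4%, and in 35.9% of the promoters of genes that fell at least 2-fold. The CCAAT box was in 25 of 34 mitotic promoters (73.5%) and in 15 of 18 cholesterol promoters (83.3%), against 36.2% and 35.7%. It was not particular to lists that fell, with 19 of 22 promoters (86.4%) in the endoplasmic reticulum folding list, of which 8 genes rose and none fell. The E2F motif TTCCCGC was in 44.1% of the G1/S promoters and in 11.8% of the mitotic ones, against 9.78% of tested genes and 6.56% of all. The sterol element core TCACCCC was in 2 of 18 cholesterol promoters (11.1%), against 5.37% and 5.17%. A match describes the letters of these windows and does not show that a factor was bound.

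**Figure D5:**
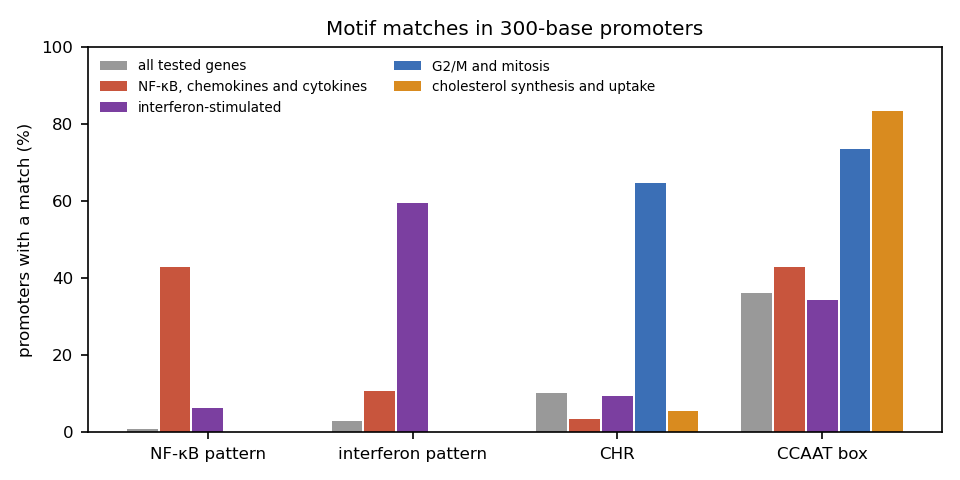
Share of promoters (percent) with at least 1 match to each of 4 motifs, for all tested genes (grey) and 4 gene lists. The NF-κB pattern was found in 42.9% of the NF-κB list, the interferon pattern in 59.4% of the interferon-stimulated list and the CHR in 64.7% of the mitotic list, while the CCAAT box was frequent in the mitotic and cholesterol lists.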

How the data were processed

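SK-MES1 RNA-Seq libraries were grouped by their labels, 3 per arm and time. The authors quantified reads with kallisto 0.43.0 against GRCh38 transcripts and deposited 1 table per library. Estimated counts, in the tables as deposited, give the reads that kallisto assigned to each transcript and are not normalized. TPM, also deposited by the authors, corrects those counts for transcript length and brings every library to an equal sum, and the effective lengths were used only for length-scaled counts. Of 173259 transcripts, 155518 were matched by identifier to genes of GENCODE release 44, which held 94.8 to 95.0% of the counts of the 6 libraries. The rest were left out, and sums of genes with unmatched transcripts are too low.

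Counts were summed per gene and rounded. Genes that reached 10 counts in 3 or more libraries entered limma 3.58.1 (voom, TMM factors, 1 mean per group, all 24 libraries) in R 4.3.3. The threshold was a Benjamini-Hochberg adjusted p of 0.01, as in the study's methods. The differences between the arms and between the late and early change were contrasts of the same fit. The 6 compared libraries carry 1 code in the sample records, and the other pairs of times 1 code each. The members and gene lists were chosen with earlier results of these data known, so no list was tested as a set. Gene lists were described by counts and medians.

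Genes named were, among protein-coding genes, the 12 largest rises and 12 largest falls with at least 5 TPM at 24 or 48 h and no overlap between libraries, the 5 lowest p in each direction, up to 6 members of each list with the lowest p and all tested members of the marker lists, MYO10, and the 5 lowest p in each direction of both differences. Others (NFKB1, NFKBIA, CXCL2, CXCL3, ISG15, SREBF2, MCM3, MCM6, CCNE1, CDKN2A, TNF, CSF3, IL1RN, the genes with opposite changes in the arms and the promoters shown) were named after their values were seen, and some that the rule names are not reported here.

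Alternatives were edgeR 4.0.16 (quasi-likelihood), DESeq2 1.42.0, log2 TPM values in limma-trend with pseudocounts of 1 or 0.1, other scalings, filters and library sets, the replicate block and each of the 6 libraries left out. Scripts were checked beforehand on simulated counts. Replicate numbers come from the labels. Plots were made with Python 3.11.15 and matplotlib 3.10.9. The 6 compared libraries held at least 48157033 estimated counts each, and the lowest of all 24 held 46613589.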

Additional observations from a re-analysis of the deposited data

Results flagged for a closer look

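The change from 24 to 48 h differed between the untreated and the TGFβ arm, by a test of the difference itself (limma voom, adjusted p of 0.01), in 1591 genes (9.12%). Among the lists, the difference passed in 34 G1/S and DNA replication genes, which fell less in untreated cells, and in 19 G2/M and mitosis genes, which fell more there. It passed in 30 interferon-stimulated genes, 17 NF-κB and chemokine genes and 20 ribosome-building genes, all more positive in untreated cells. In 8 protein-coding genes a change of at least 2-fold in untreated cells stood against a change past the threshold in the opposite direction with TGFβ. They included CRISPLD2, FAP, MMP24, PROC, STC2, TNFRSF9 and TP63. FAP was very low, with untreated means of 0.345 TPM at 24 h and 0.270 TPM at 48 h. Its log2 change of -2.16 from the counts is far larger than the change of these means. TP63 rose by 1.18 without and fell by 0.32 with TGFβ, and PROC, which encodes protein C, fell by 2.01 without and rose by 0.47 with TGFβ. The cause of these differences was not tested.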

How the results depend on the processing

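The count of genes past the adjusted p (4953) was 4855 with edgeR's quasi-likelihood test, 5228 with DESeq2, 4803 with the 6 libraries alone and 5495 with the 12 untreated libraries. Leaving out 1 library gave 3971 to 5328 genes in all, 2128 to 2760 higher and 1843 to 2568 lower, 653 to 732 at least 2-fold, 1194 to 1497 that differed between the arms and 3601 to 4602 that differed from the early change. These ranges include the settings without 24 h replicate 2 of the TGFβ arm or of both arms, which were chosen after the data were seen. The mitotic list stayed at 40 falls, the cholesterol list at 20 to 22, the interferon list at 39 to 40 rises and the NF-κB list at 30 to 32. With the 4 reference genes as library size there were 10049 genes, 9565 higher and 484 lower, 1336 at least 2-fold, 8484 that differed from the early change and 13 cholesterol genes that fell, and the sign turned for GUSB (0.39), NQO1 (0.023), PGK1 (0.17), PSPH (0.12), RPL6 (0.16) and RPS20 (0.048). On log2(TPM + 1) 1560 genes were lower and 340 at least 2-fold, and on log2(TPM + 0.1) 1545 were lower and 1000 differed between the arms. The difference between the arms was 1049 with length-scaled counts and 2704 at an adjusted p of 0.05. The causes were not tested.

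Same-numbered deviations of untreated 24 and 48 h libraries correlated at 0.163, 0.0557 and -0.193. For different numbers the correlations ran from -0.253 to 0.204. Deviations from a mean of 3 libraries are tied to each other, so these values cannot decide whether the replicate numbers pair the samples. With the replicate block there were 5533 genes over all 24 libraries and 4952 over the 6.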
